A study of Drosophila melanogaster with 6 samples.

Results

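The proteasome is the protease that degrades proteins tagged with ubiquitin, and 39 genes for its subunits and their paralogues were measured here among 10844 genes. They were chosen by name: every probe set listed under exactly 1 gene symbol that begins with Prosalpha or Prosbeta, or with Rpt or Rpn and a number, with 1 probe set kept per gene. RNA of Drosophila melanogaster wing imaginal discs in the last larval instar, the sheets of cells from which adult wings and the back of the thorax develop, was measured on 6 Affymetrix arrays. Activated EGFR (EGFR-TOP) was expressed in the samples of arrays ACT1, ACT2 and ACT3, and dominant negative EGFR (EGFR-DN), which blocks signalling, in those of DN1, DN2 and DN3. All 6 samples carry the driver line 71B-Gal4 and a transgene and came from flies raised at 25 °C, and samples with no transgene were not analysed, so each group is read only against the other. The study was set up to find genes that respond to Egfr. The driver is known to be active in the wing primordium of the disc, so cells without the transgene contribute to each sample. The sources used here give neither the age of the larvae in hours nor the number of discs per sample. Whether replicates are separate animals is not said in the labels, and the p-values describe the spread between arrays, which could be technical.

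The proteasome has a barrel-shaped core particle and a regulatory particle that caps it. The core is built of rings of alpha subunits, which gate the entry, and rings of beta subunits, some of which cut the peptide chain. The regulatory particle holds a ring of ATPases (Rpt), which unfold the substrate and push it into the core, and non-ATPase subunits (Rpn), which bind ubiquitin chains, remove them or form the scaffold. In flies several subunits have paralogues that are transcribed mainly in the male germline. Some carry the suffix T for testis and others R for related.

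The 39 genes fell into 12 core genes and 14 regulatory genes that have no suffix, called somatic here, and 13 paralogues with a T or R suffix. The core genes were Prosalpha2 to Prosalpha7 and Prosbeta2 to Prosbeta7, and the regulatory genes were Rpt2 to Rpt5 and Rpn1, Rpn2, Rpn3, Rpn5, Rpn6, Rpn7, Rpn8, Rpn11, Rpn12 and Rpn13. The subunit genes Prosalpha1, Prosbeta1, Rpt1, Rpt6, Rpn9 and Rpn10 and the paralogues Prosalpha1R, Prosbeta5R2 and Rpt6R were not listed alone under any probe set and were not analysed here. Probe sequences were not used here, so cross-hybridisation between near-identical paralogues, such as the neighbours Prosbeta4R1 and Prosbeta4R2, cannot be assessed.

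All values are log2 probe set signals, so a difference of 1 is a 2-fold change. They are not per transcript length, and levels of different probe sets are therefore not ranked against each other as RNA amounts. All 26 somatic genes lay above the median of the array, which was 8.01 to 8.06, on each of the 6 arrays, with means from 9.46 for Rpn8 to 12.91 for Prosalpha2. By contrast, 11 of the 13 paralogues lay below that median on every array. Of all 10844 genes, 4969 lay above it and 4366 below it on every array. Among fixed markers of the wing disc, 8 of 9 measured genes exceeded the highest yeast control probe set on every array, and pnr did so on 5. Of all 10844 genes, 9628 exceeded it on every array. The yeast controls detect no fly RNA and give a rough background, and the highest of the 4 read 5.68 to 6.17 per array.

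No proteasome gene passed the test between activated and dominant negative discs. The comparison was made with limma over all 10844 genes, and 0 of 39 members were called at an adjusted p under 0.05, where 0% of all genes were called. The smallest adjusted p of a member was 0.9998. At an unadjusted p under 0.05 there was 1 member, Rpt3R, against 2.38% of all genes. On the deposited scale the same gene was the 1 member whose groups did not overlap with activated discs higher, against 3.24% of all genes, and 0 members were separated with activated discs lower, against 3.12%. In either direction 1 of 39 was separated, against 6.35% of all genes. These shares are no higher than or near those of all genes. The unadjusted 95% interval of the log2 difference stayed between -1 and 1 for all 39 members, from a lowest bound of -0.72 for Rpt5 to a highest of 0.62 for Rpn3, so a 2-fold difference lies outside each of them.

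**Figure D1:**
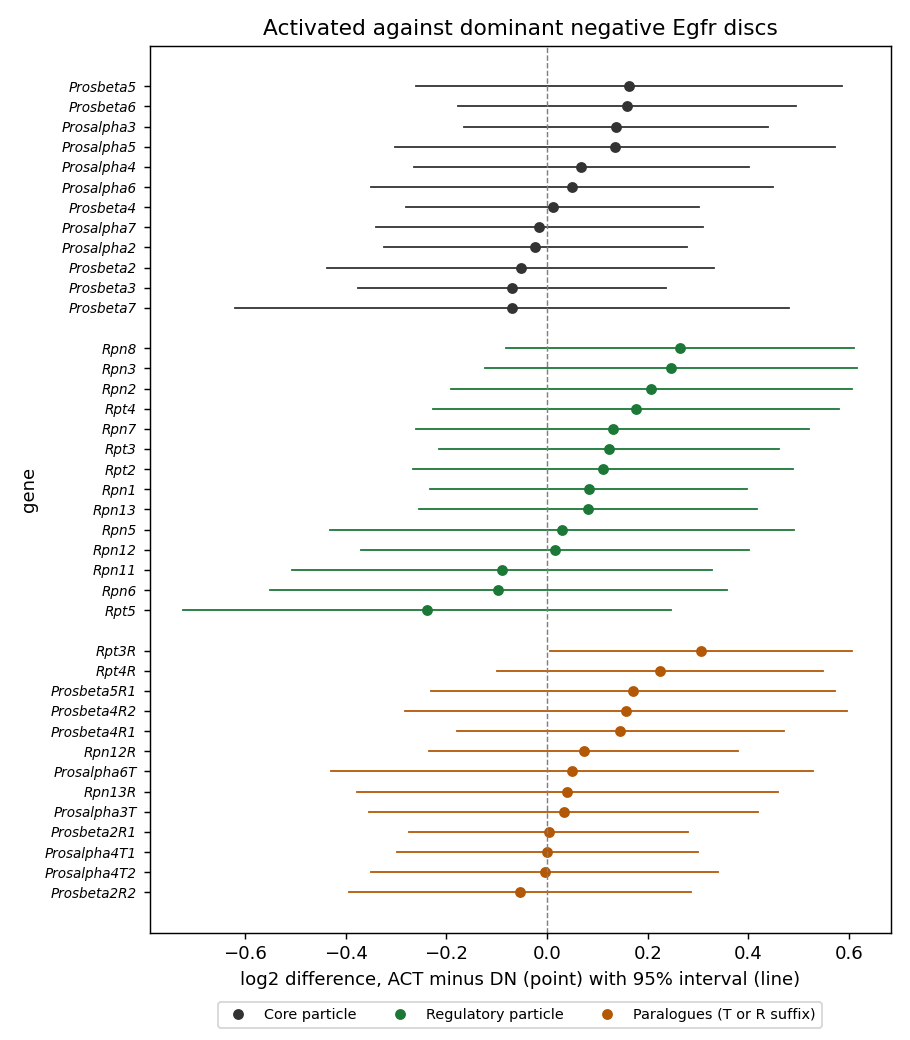
Log2 difference, activated minus dominant negative (points), with its unadjusted 95% interval from limma (lines), for 12 core genes, 14 regulatory genes and 13 paralogues, each class sorted by its difference. The interval of Rpt3R alone lies above 0, and no interval reaches -1 or 1.

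In the core particle, log2 differences were small in both directions. Of the 12 genes, 7 had a positive and 5 a negative log2 difference, with a median of 0.03 beside 0.01 over all genes and -0.04 over 1178 other genes with a mean log2 value of at least 10. Prosbeta5, the subunit with chymotrypsin-like activity, read 12.36, 11.82 and 12.03 in ACT1, ACT2 and ACT3, against 12.07, 12.05 and 11.60 in DN1, DN2 and DN3. The groups overlapped, and the highest core difference, 0.16 (SE 0.19), was smaller than the SD of 0.27 within either group. Prosbeta6, a structural beta subunit, read 12.18, 12.08 and 12.49 in activated discs, against 12.05, 12.05 and 12.19 in dominant negative discs (log2 difference 0.16, SE 0.15). ACT3 stood above the other 5 arrays, which lay close together. Prosalpha3 of the alpha ring read 11.85, 11.69 and 11.96 in activated discs, against 11.74, 11.72 and 11.63 in dominant negative discs (log2 difference 0.14, SE 0.13). Here too ACT3 was the highest array, while ACT2 lay among the dominant negative ones.

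At the other end of the core particle, Prosbeta7, another structural beta subunit, read 11.15, 10.71 and 11.75 in ACT1, ACT2 and ACT3, against 11.06, 11.29 and 11.48 in DN1, DN2 and DN3. Activated discs held both its highest and its lowest array, 1.05 apart, the widest range of any member, and the log2 difference was -0.07 (SE 0.24). Prosbeta3 read 11.65, 11.50 and 11.80 in activated discs, against 11.66, 11.76 and 11.74 in dominant negative discs (log2 difference -0.07, SE 0.14). Its dominant negative values fell inside the range of the activated ones. Prosbeta2, the subunit with trypsin-like activity, read 12.42, 11.95 and 12.25 in activated discs, against 12.34, 12.42 and 12.01 in dominant negative discs (log2 difference -0.05, SE 0.17). The groups covered nearly the same range. The 6 remaining core genes had log2 differences between -0.02 for Prosalpha2 and 0.13 for Prosalpha5, with SEs of 0.13 to 0.19. Prosbeta4 was the steadiest core gene, with 0.22 between its highest and lowest array and a log2 difference of 0.01 (SE 0.13).

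Prosalpha7 and Prosbeta6 each had a second probe set, of far lower signal than the one used. For Prosalpha7 it read 7.29, 7.85 and 7.02 in ACT1, ACT2 and ACT3, against 7.49, 7.37 and 7.36 in DN1, DN2 and DN3, with a log2 difference of -0.02 (SE 0.20) in a limma fit over all probe sets, where the probe set used had -0.02 as well (SE 0.15). For Prosbeta6 it read 7.82, 8.95 and 8.09 in activated discs, against 8.05, 7.86 and 8.02 in dominant negative discs (log2 difference 0.31, SE 0.26, in the same fit). Both low probe sets were highest on ACT2, where the probe set used for Prosalpha7 read 10.66, lower than on 4 of the 5 other arrays. The probe sets of a gene thus placed ACT2 differently.

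In the regulatory particle 11 of 14 genes had a positive and 3 a negative log2 difference, where 53.2% of all genes and 39.0% of the other genes with a mean log2 value of at least 10 had a positive one. The median was 0.10. Rpn8, the scaffold partner of the deubiquitinase Rpn11, read 9.51, 9.46 and 9.82 in ACT1, ACT2 and ACT3, against 9.27, 9.22 and 9.51 in DN1, DN2 and DN3. Its groups overlapped only at the lowest activated and highest dominant negative arrays, and the log2 difference was 0.26 (SE 0.15, 1.20-fold). Rpn3, a subunit of the lid, read 12.28, 12.55 and 12.42 in activated discs, against 11.92, 12.44 and 12.15 in dominant negative discs (log2 difference 0.25, SE 0.16). It was the 1 somatic gene with its highest value on ACT2. Rpn2, a large scaffold subunit of the base, read 10.50, 10.41 and 10.76 in activated discs, against 10.01, 10.49 and 10.54 in dominant negative discs (log2 difference 0.21, SE 0.18). The low value of DN1 set it apart, since the other 5 arrays overlapped.

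The ATPase gene Rpt5 had the lowest difference of all members, -0.24 (SE 0.22). It read 10.32, 10.06 and 10.84 in ACT1, ACT2 and ACT3, against 10.36, 10.74 and 10.85 in DN1, DN2 and DN3. ACT3 matched the highest dominant negative array, while ACT1 and ACT2 lay below all 3. Rpn6, a lid subunit, read 10.85, 10.62 and 11.42 in activated discs, against 10.94, 11.10 and 11.15 in dominant negative discs (log2 difference -0.10, SE 0.20). Rpn11, which cuts ubiquitin chains off the substrate, read 11.47, 10.92 and 11.62 in activated discs, against 11.46, 11.46 and 11.35 in dominant negative discs (log2 difference -0.09, SE 0.19). In both, ACT2 was the lowest and ACT3 the highest array. The ubiquitin receptors Rpn1 and Rpn13 had log2 differences of 0.08 each (SE 0.14 and 0.15). The ATPase genes Rpt4, Rpt3 and Rpt2 had 0.18, 0.12 and 0.11 (SE 0.18, 0.15 and 0.17), and the lid genes Rpn7, Rpn5 and Rpn12 had 0.13, 0.03 and 0.02 (SE 0.17, 0.20 and 0.17).

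The core and the regulatory particle were not separated by these arrays. The median log2 difference of the core genes minus that of the regulatory genes was -0.07. Taken array by array, as median deviations from each gene's own mean, core minus regulatory was -0.03, 0.01 and -0.15 in ACT1, ACT2 and ACT3, against 0.17, 0.02 and -0.10 in DN1, DN2 and DN3. The ranges overlapped, and arrays of both groups lay on either side of 0. The alpha and beta rings of the core had medians of 0.06 and -0.02, and the ATPases and non-ATPases of the regulatory particle had 0.12 and 0.08. Members of 1 complex are not replicates, so these medians are descriptions and were not tested.

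On the deposited scale the somatic genes moved together from array to array, and their class medians overlapped between the groups. Each value was set against the gene's own mean over the 6 arrays. On ACT3 all 26 somatic genes lay above their own mean, on ACT2 1 of 26 did (Rpn3), and on ACT1 16 did. On DN1, DN2 and DN3 the count was 6, 18 and 13. ACT3 was the highest array for 19 of the 26 genes and ACT2 the lowest for 12. The median deviation of the core genes was 0.01, -0.16 and 0.15 in ACT1, ACT2 and ACT3, against -0.02, 0.07 and -0.08 in DN1, DN2 and DN3. That of the regulatory genes was 0.04, -0.17 and 0.30 in activated discs, against -0.19, 0.05 and 0.02 in dominant negative discs. Activated discs thus held both ends of the range in the core, and the spread within a group was larger than the difference between the groups. The SD was larger among activated than among dominant negative discs in 20 of the 26 genes (76.9%). This held for 55.1% of all genes and 56.4% of the other genes of high level. The 26 genes share their arrays and moved together, so they are not independent of each other in this count.

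**Figure D2:**
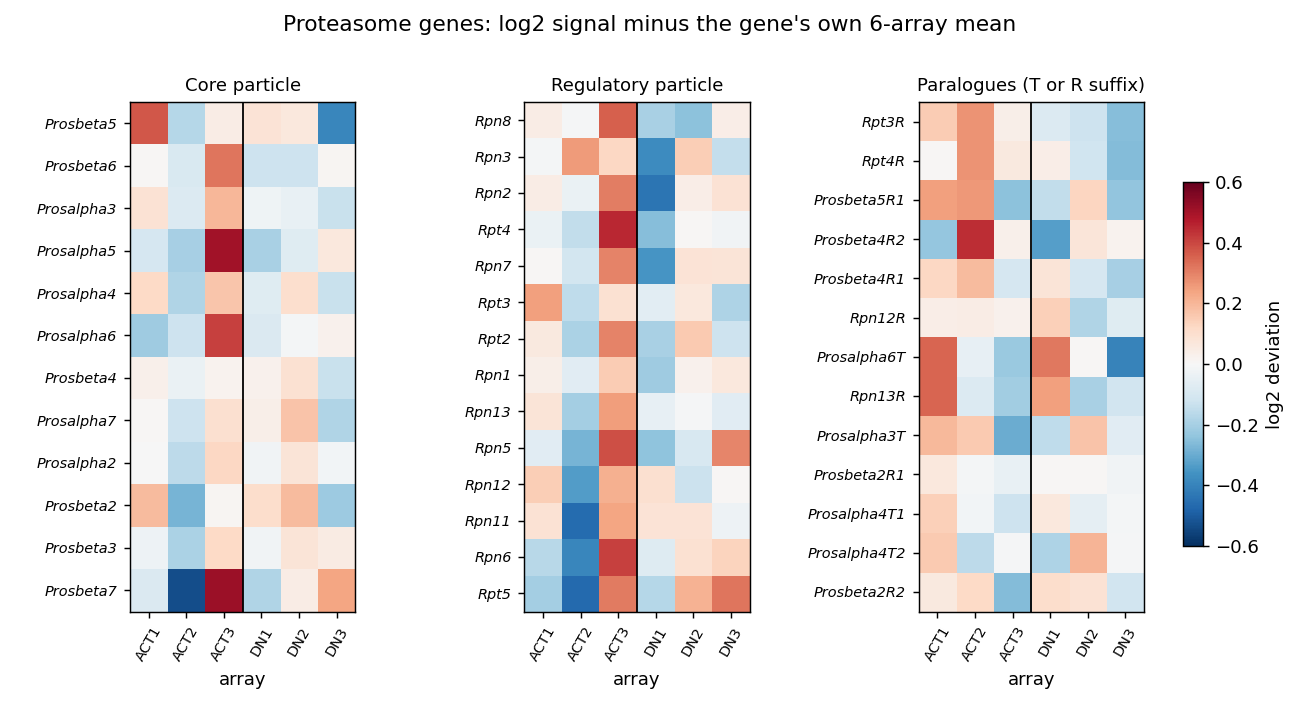
Log2 signal of each gene minus its own mean over the 6 arrays (colour, red above and blue below), with activated discs left of the black line and dominant negative discs right of it. In the core and regulatory panels ACT3 lies above 0 for all 26 genes and ACT2 below 0 for all but Rpn3, while 4 of the 13 paralogues lie above 0 on ACT3 and 8 on ACT2.

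Part of this movement was shared by other genes of like signal. Of 1178 other genes with a mean log2 value of at least 10, 73.5% lay above their own mean on ACT3 and 24.1% on ACT2. Their median deviation was -0.03, -0.16 and 0.11 in ACT1, ACT2 and ACT3, against -0.04, 0.08 and 0.05 in DN1, DN2 and DN3. Genes with a mean under 8 ran the other way, at 0.06 in ACT2 and -0.07 in ACT3. The SD over probe sets was 1.59, 1.53 and 1.66 in ACT1, ACT2 and ACT3, against 1.58, 1.66 and 1.62 in DN1, DN2 and DN3, lowest on ACT2, so strong and weak signals lay closer together there. Set against the other genes of high level, the core genes lay at 0.04, -0.01 and 0.03 in activated discs, against 0.02, -0.01 and -0.13 in dominant negative discs. The regulatory genes lay at 0.07, -0.01 and 0.19 in activated discs, against -0.15, -0.03 and -0.03 in dominant negative discs. The core genes thus lay close to the high-level genes on 5 arrays and below them on DN3, while the regulatory genes stood above them on ACT3 and below them on DN1. For all 26 somatic genes the median was 0.05, -0.01 and 0.13 in activated discs, against -0.04, -0.01 and -0.06 in dominant negative discs. All 3 activated arrays lay above all 3 dominant negative ones by this median (-0.0058 in ACT2, against -0.012 in DN2), and the same held for the regulatory genes (-0.015 in ACT2, against -0.025 in DN2), while the core genes overlapped. The gap between the nearest arrays was far smaller than the spread within either group.

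**Figure D3:**
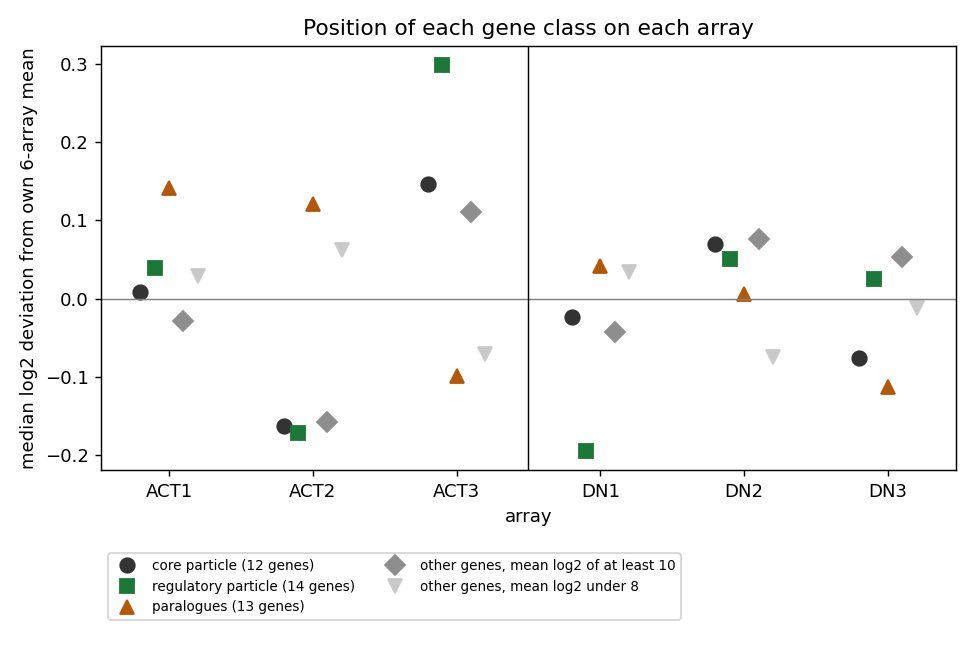
Median log2 deviation from the gene's own 6-array mean on each array, for core genes, regulatory genes, paralogues and other genes with a mean log2 value of at least 10 or under 8 (symbols, spread sideways for legibility). Core, regulatory and other high-level genes are all low on ACT2 and high on ACT3, and the paralogues lie on the opposite side of 0 on both.

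On the deposited scale the direction of the group difference depended on single arrays. Without ACT2, 25 of the 26 somatic genes had a positive log2 difference, with a median of 0.15 in the core and 0.20 in the regulatory particle. Without ACT3, 11 of 26 did, and the medians were -0.07 and -0.01. Without DN1 the count was 15, and the regulatory median was 0.04. With quantile normalization, which gives all arrays 1 distribution, 22 of 26 had a positive difference (11 core and 11 regulatory genes), against 18 of 26 on the deposited scale. No member was called in any of these fits.

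With each array centred on the other genes of high level, a setting chosen after seeing the data, 21 of 26 somatic genes had a positive difference (10 core and 11 regulatory genes), beside 52.8% of the other genes of high level and 66.8% of all genes. Leaving out each array in turn on this scale gave 19 to 25 of 26, with a core median of 0.05 to 0.14 and a regulatory median of 0.11 to 0.19. The direction of both medians was thus the same in each of these 6 fits. Over all genes, 49.5% to 74.5% were positive in these fits. Without ACT3, 73.1% of the somatic genes were positive, against 74.5% of all genes and 52.0% of the other genes of high level. There the core and regulatory medians were 0.05 and 0.11, below the 0.15 over all genes. Groups did not overlap, with activated discs higher, for 7 of the 39 members (Prosalpha3, Prosbeta6, Rpn1, Rpn2, Rpn7, Rpn8 and Rpt4), against 3.27% of all genes and 5.43% of the other genes of high level. With activated discs lower there were 0 members, against 2.19% of all genes. The 7 genes share their arrays and are not independent of each other. With all 6 arrays on this scale 0 of 39 members were called and 0 had an unadjusted limma p under 0.05, against 203 of 10844 genes.

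The paralogues read low in both groups, and their log2 differences ran from -0.05 for Prosbeta2R2 to 0.31 for Rpt3R, with a median of 0.05. Of the 13, 11 had a positive and 2 a negative difference, but 3 of the positive and 1 of the negative ones were under 0.04 in size. A positive difference was found in 53.2% of all genes and 58.6% of the other genes with a mean log2 value under 8. Without ACT1, 6 of 13 were positive, with a median of -0.03, and without DN3 7 of 13 were. With quantile normalization or median centring 9 of 13 were positive, against 51.6% and 50.1% of all genes. With centring on other genes of high level all 13 were, against 66.8% of all genes. That centring shifts the log2 difference of every gene by the same amount. Of the 13 genes, 11 exceeded the highest yeast control on every array, as did 9628 of all 10844 genes. Prosbeta4R1 did so on 5 and Prosbeta4R2 on 4.

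Rpt3R, a paralogue of the ATPase gene Rpt3, read 7.63, 7.75 and 7.51 in ACT1, ACT2 and ACT3, against 7.39, 7.35 and 7.22 in DN1, DN2 and DN3. All 3 activated arrays lay above all 3 dominant negative ones, by a log2 difference of 0.31 (SE 0.13, 1.24-fold) with an interval of 0.01 to 0.61. The unadjusted limma p was 0.0464 and the adjusted p 0.9998, so the difference did not pass. With centring on other genes of high level its groups overlapped. Its partner Rpt3 read 10.40, 10.01 and 10.25 in activated discs, against 10.09, 10.22 and 9.97 in dominant negative discs, and overlapped. Rpt4R read 7.12, 7.38 and 7.17 in activated discs, against 7.15, 6.99 and 6.85 in dominant negative discs (log2 difference 0.22, SE 0.14). Only the value of DN1 kept its groups from separating. Its partner Rpt4 read 10.85, 10.74 and 11.34 in activated discs, against 10.63, 10.90 and 10.87 in dominant negative discs, and was lowest in DN1.

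Among the T paralogues of the alpha ring, Prosalpha6T, known for its role in male fertility, read 6.84, 6.45 and 6.27 in ACT1, ACT2 and ACT3, against 6.82, 6.50 and 6.10 in DN1, DN2 and DN3. The 2 groups ran nearly in parallel, with a log2 difference of 0.05 (SE 0.21). Its partner Prosalpha6 read 11.92, 12.00 and 12.54 in activated discs, against 12.04, 12.11 and 12.15 in dominant negative discs, with a log2 difference of 0.05 as well (SE 0.18). Prosalpha3T read 6.72, 6.69 and 6.23 in activated discs, against 6.38, 6.70 and 6.46 in dominant negative discs (log2 difference 0.03, SE 0.17). It was lowest on ACT3, where its partner Prosalpha3 was highest. Prosalpha4T1 read 6.98, 6.83 and 6.72 in activated discs, against 6.91, 6.79 and 6.83 in dominant negative discs. Prosalpha4T2 read 8.40, 8.09 and 8.24 in activated discs, against 8.06, 8.45 and 8.24 in dominant negative discs, and was the 1 paralogue above the array median on all 6 arrays. The group means of both were equal to 2 decimals, 6.84 and 8.25. Their partner Prosalpha4 read 11.41, 11.11 and 11.46 in activated discs, against 11.22, 11.39 and 11.16 in dominant negative discs (log2 difference 0.07, SE 0.15).

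Among the R paralogues of the beta ring, Prosbeta2R1 was the steadiest of all members, at 8.03, 7.96 and 7.92 in ACT1, ACT2 and ACT3, against 7.98, 7.97 and 7.94 in DN1, DN2 and DN3. Its whole range was 0.11, while that of its partner Prosbeta2 was 0.47. Prosbeta2R2 read 8.22, 8.28 and 7.90 in activated discs, against 8.27, 8.25 and 8.05 in dominant negative discs (log2 difference -0.05, SE 0.15). Prosbeta5R1 read 7.31, 7.32 and 6.82 in activated discs, against 6.92, 7.19 and 6.83 in dominant negative discs (log2 difference 0.17, SE 0.18). Both were lowest on ACT3. Prosbeta4R1 read 6.22, 6.29 and 6.00 in activated discs, against 6.17, 6.00 and 5.90 in dominant negative discs (log2 difference 0.15, SE 0.14). Prosbeta4R2 read 6.02, 6.69 and 6.28 in activated discs, against 5.92, 6.33 and 6.28 in dominant negative discs (log2 difference 0.16, SE 0.20). These 2 genes lay nearest to the yeast controls, while their partner Prosbeta4 read 12.81, 12.74 and 12.81 in activated discs, against 12.81, 12.87 and 12.65 in dominant negative discs.

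Of the paralogues of the regulatory particle without ATPase activity, Rpn12R read 7.21, 7.21 and 7.19 in ACT1, ACT2 and ACT3, against 7.31, 6.99 and 7.09 in DN1, DN2 and DN3 (log2 difference 0.07, SE 0.14). The activated arrays lay inside the dominant negative range. Its partner Rpn12 read 11.59, 11.11 and 11.66 in activated discs, against 11.54, 11.32 and 11.45 in dominant negative discs. Rpn13R read 7.40, 6.97 and 6.85 in activated discs, against 7.30, 6.86 and 6.94 in dominant negative discs (log2 difference 0.04, SE 0.19). ACT1 and DN1 were its high arrays. Its partner Rpn13 read 11.41, 11.13 and 11.58 in activated discs, against 11.28, 11.33 and 11.27 in dominant negative discs, where the 3 dominant negative arrays lay close together.

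**Figure D4:**
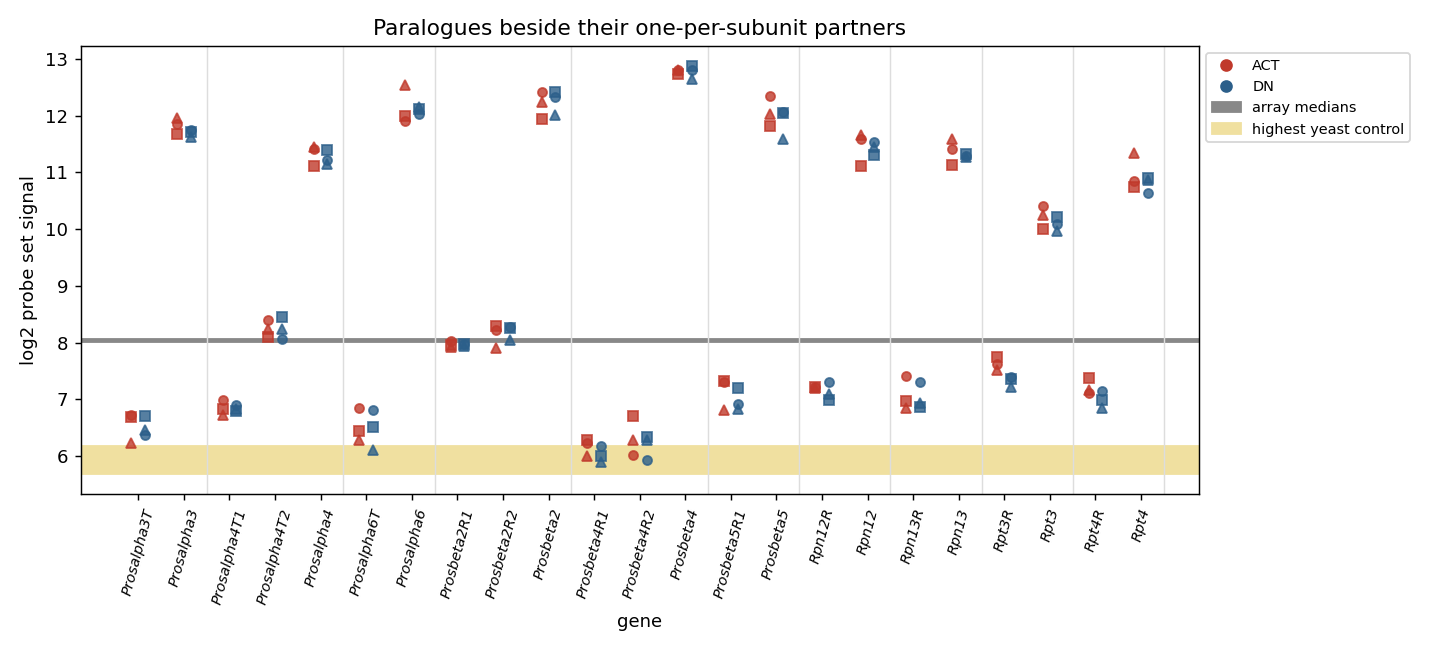
Log2 signal of each paralogue and, to its right, its somatic partner, with activated discs (ACT, left) and dominant negative discs (DN, right) for each gene; circles, squares and triangles are replicates 1, 2 and 3. The grey line covers the array medians, 8.01 to 8.06, and the yellow band the highest yeast control per array, 5.68 to 6.17; every partner lies above the grey line on all arrays, and 11 of the 13 paralogues lie below it on all arrays.

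Each paralogue was also set against its partner within each array, in 13 pairs. The log ratio of paralogue to partner overlapped between activated and dominant negative discs in all 13. The paralogue's log2 difference exceeded the partner's by at most 0.18, for Rpt3R, and fell short of it by at most 0.10, for Prosalpha3T (-0.10). On ACT3, 9 of the 13 paralogues lay below their own mean, while all 26 somatic genes lay above theirs. Markers of the testis were set beside them, since the T and R genes are known from there. Of 16 measured testis markers, 11 exceeded the highest yeast control on every array, 3 lay above the array median on every array (Mst98Ca, Pgam5-2 and Mst84Db), and dj exceeded the yeast controls on none. Over all 10844 genes, 9628 exceeded that control and 4969 lay above the median on every array. The summed linear signal of the 16 was 3282 to 3919 in activated discs, against 3432 to 3989 in dominant negative discs. Their median log2 difference was 0.03, and 0 were called.

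A list of 12 genes around the proteasome held assembly chaperones, activators and inhibitors, but also the associated deubiquitinases Uch-L5 and Usp14, the ubiquitin-conjugating enzyme ben, and the transcriptional regulators cnc, maf-S and Keap1. None passed the test either: 5 of 12 had a positive and 7 a negative log2 difference, with a median of -0.08, and 0 were called. A positive one was found in 53.2% of all genes and in 39.0% of the other genes with a mean log2 value of at least 10. PSMG1, an assembly chaperone of the alpha ring, had 0.19 (SE 0.14) and Sem1, a small lid subunit, 0.17 (SE 0.14). The gene ben, also among the 5, had 0.14 (SE 0.18). REG, the proteasome activator of the nucleus, read 10.60, 10.14 and 11.90 in ACT1, ACT2 and ACT3, against 10.38, 11.38 and 11.80 in DN1, DN2 and DN3 (log2 difference -0.30, SE 0.46). Its arrays spanned more than those of any subunit gene. Pomp, the chaperone of beta ring assembly, read 8.73, 8.88 and 9.84 in activated discs, against 8.99, 9.57 and 9.74 in dominant negative discs (log2 difference -0.28, SE 0.30). Both were high on ACT3 and DN3 and overlapped between the groups. PI31, a regulator that binds the core, was the 1 gene of this list whose groups did not overlap: it read 9.63, 9.36 and 9.59 in activated discs, against 9.68, 9.73 and 9.75 in dominant negative discs (log2 difference -0.20, SE 0.13). Groups separated in this direction for 3.12% of all genes. The gene cnc encodes a transcription factor that, as its mammalian relative does, activates subunit genes, and it had a log2 difference of -0.04 (SE 0.13).

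Genes that encode ubiquitin, attach it, regulate its ligases or bring substrates to the proteasome had a positive difference in 9 of 24 and a negative one in 15, with a median of -0.06, and 0 were called. The means of these genes ran from 8.18 to 14.25. Of other genes, 50.8% with a mean log2 value of 8 to 10 and 39.0% with one of at least 10 were positive. The medians of those 2 groups were 0.00 and -0.04. The largest negative value of the list was that of Rad23, a shuttle for ubiquitinated proteins, at -0.42 (SE 0.29). Next was slmb, a substrate receptor of a ubiquitin ligase, at -0.39 (SE 0.22). The highest were p47 at 0.16 (SE 0.18) and Npl4 at 0.15 (SE 0.19), cofactors of the unfolding ATPase TER94. As in the subunit genes, ACT2 and ACT3 lay at opposite ends: 2 of these 24 genes exceeded their own mean on ACT2 and 21 on ACT3. Stress genes did not show this order, with 5 of 10 above their own mean on ACT2 and 4 on ACT3, and a median log2 difference of 0.01.

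Markers of tissues other than the disc epithelium were set beside the somatic proteasome genes, whose summed linear signal was 73636 to 95410 in activated discs, against 77148 to 84704 in dominant negative discs. The sum of 4 myoblast markers was 1159 to 1310 in activated discs, against 1498 to 1682 in dominant negative discs. Of these 4, twi (log2 difference -0.25) and Him (-0.56) were lower in activated discs with no overlap. For 7 hemocyte markers the sum was 2838 to 3157 in activated discs, against 3502 to 4008 in dominant negative discs. This separation came from SPARC (log2 difference -0.87), which read 1013 to 1551 in linear signal in activated discs, against 2277 to 2530 in dominant negative discs. The other 6 summed to 1527 to 1825 in activated discs, against 1225 to 1547 in dominant negative discs, and PPO2 (0.39) was higher in activated discs with no overlap. Over the 7 markers 3 had a positive and 4 a negative log2 difference, with a median of -0.02. Of the hemocyte markers, srp exceeded the yeast controls on no array. The sums overlapped for the other lists. Within these, the fat body marker Fbp2 (log2 difference -1.07) and the tracheal marker Gasp (-0.92) were lower in activated discs with no overlap. No marker of these lists was higher there with no overlap. Over all genes, groups separated with activated discs lower in 3.12% and with activated discs higher in 3.24%. For 4 tracheal markers the sums were 4839 to 7238 in activated discs, against 6852 to 10283 in dominant negative discs. For 7 salivary gland markers they were 3229 to 10593 in activated discs, against 4108 to 13795 in dominant negative discs. All markers of both lists exceeded the yeast controls on every array. For 3 fat body markers the sums were 2052 to 6383 in activated discs, against 4184 to 8502 in dominant negative discs. For 4 germline markers they were 684 to 907 in activated discs, against 653 to 781 in dominant negative discs. Of the germline markers, zpg had a mean of 9.01 and the others 5.89 to 6.35. Both zpg and osk exceeded the yeast controls on every array, piwi on 5 and vas on 3. All 7 salivary gland, 3 fat body, 4 myoblast and 4 tracheal markers had a negative log2 difference, and 0 of these were called. A negative difference was found in 5075 of all 10844 genes. Those of fkh (-0.02, SE 0.19), Sgs1 (-0.03, SE 0.18) and btl (-0.05, SE 0.13) were small beside their SEs. The part of these tissues in the proteasome values was not tested. In such whole-tissue samples fewer cells of a type and less RNA per cell cannot be told apart.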

How the data were processed

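The authors deposited log2 signals, 1 per probe set on each of 6 arrays, made with GCRMA (a background correction from probe sequence) per the submitters' processing notes. Settings of that step are not stated there, and the scale was inferred from the values, which span 4.72 to 15.08. Of 14010 probe sets, 44 controls were left out, and a minimum mean of 4 removed 0 of the other 13966. With 1 symbol for 12443 of them, 10844 genes were tested, each by its probe set of highest mean. The 39 members had 41 probe sets, and 1 more, shared by several symbols, was left out.

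The test was limma 3.58.1 (R 4.3.3, lmFit and eBayes, Benjamini-Hochberg over all genes, two-sided). Its code was also run on simulated data. There the noise was independent between genes, so the shared movement of these arrays was not covered. An exact test of 3 against 3 arrays cannot give p under 0.1. The rule for named genes took the 3 highest and 3 lowest log2 differences of each somatic class, all paralogues and their partners, and the 2 highest and 2 lowest of the assembly and ubiquitin lists. The genes cnc, PI31 and ben, those separated after centring on genes of high level, and the single markers were named after their values were seen. Members and lists were chosen with earlier results of these data known. Of 119 names in 11 lists, 100 were measured.

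Alternatives were array weights, quantile normalization, median centring, a replicate block, a minimum mean of 6, trend and robust prior, averaged probe sets, all probe sets, leaving out each array, and, added after seeing the data, centring on genes of high level, also with each array left out. Precision is limited by the number of arrays. Scanner files and gene sequences were not used here.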

Additional observations from a re-analysis of the deposited data

How the results depend on the processing

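Under all 15 alternatives 0 proteasome genes were called. Over all genes the count of 0 became 1 in the fits with averaged probe sets, array weights, trend and robust prior, or quantile normalization, and 2 with centring on genes of high level, added after seeing the data. Leaving out 1 array gave 0 to 3 called genes (3 without ACT3, 1 without DN1). It moved the core median between -0.07 and 0.15, the regulatory median between -0.01 and 0.20, the paralogue median between -0.027 and 0.17 (0.17 without ACT3) and core minus regulatory between -0.09 and -0.02. Of 32 named members, 14 kept the sign of their log2 difference under all alternatives.

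With array weights the sign turned for Prosalpha6 (-0.10), Prosbeta2 (0.057), Prosalpha4T2 (0.035), Prosbeta2R2 (0.0084) and Prosbeta4R2 (-0.042). With quantile normalization it turned for Prosbeta2 (0.00066), Prosbeta3 (0.028), Prosalpha4T1 (-0.019) and Prosbeta2R1 (-0.0036), with median centring for Prosalpha4T1 (-0.010) and Prosbeta2R1 (-0.0071), and with centring on genes of high level for Prosbeta2 (0.0023), Prosalpha4T2 (0.050) and Prosbeta2R2 (0.00027). The cause was not tested. Leaving out 1 array also turned signs, with a range of -0.14 to 0.17 for Prosalpha6, -0.17 to 0.075 for Prosbeta2, -0.15 to 0.0086 for Prosbeta3, -0.052 to 0.060 for Prosbeta4, -0.34 to 0.18 for Prosbeta7, -0.055 to 0.19 for Prosalpha3T, -0.069 to 0.064 for Prosalpha4T1, -0.099 to 0.096 for Prosalpha4T2, -0.14 to 0.22 for Prosalpha6T and -0.027 to 0.028 for Prosbeta2R1. It was -0.13 to 0.063 for Prosbeta2R2, -0.023 to 0.31 for Prosbeta4R2, -0.12 to 0.17 for Rpn13R, -0.23 to 0.12 for Rpn11, -0.085 to 0.19 for Rpn12, -0.022 to 0.20 for Rpn13, -0.33 to 0.075 for Rpn6, -0.0036 to 0.29 for Rpt4, -0.81 to 0.068 for REG and -0.019 to 0.27 for p47. The log2 difference of Rpt3R stayed between 0.25 and 0.36.

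Samples share replicate numbers, and whether these pair them was not settled here. Across genes, deviations from the group means correlated by 0.61 for replicate 1, -0.12 for replicate 2 and 0.59 for replicate 3. ACT2 correlated more with DN1, by 0.31. Over the 39 proteasome genes alone the same-number correlations were 0.63, 0.16 and 0.67, and ACT2 with DN1 gave 0.16. Within replicates 1, 2 and 3 the activated array was higher for 9, 1 and 12 of 12 core genes. For regulatory genes it was higher for 12, 2 and 13 of 14, and over all genes for 5418, 6048 and 4905 of 10844. With the replicate block 0 genes and 0 proteasome genes were called, and 615 genes had an unadjusted limma p under 0.05, against 258 without it.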
